A study of Mus musculus with 23 samples.

Results

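Desmosomal and classical cadherin junction genes were described across 23 clonal preadipocyte lines. The set held 8 genes, chosen by symbol: the plaque genes Pkp2, Pkp4, Dsp and Jup and the cadherin genes Cdh1, Cdh2, Cdh3 and Cdh11. They were 8 of 18193 genes with a single-symbol probe set on the array and were read by 17 probe sets. Where a gene had several probe sets, the main value came from the one that averaged highest over the 23 lines. Of the 8 genes, 6 were above the median of the whole table, 5.13, in at least 3 lines and entered the tests among 12307 genes; Dsp and Cdh1 did not. The genes were chosen because of their levels in the type groups, and the groups themselves had been formed by the submitters from the expression values of these same arrays. Differences between types are therefore given as levels, with a difference and its standard error, and no p-value.

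Adherens junctions and desmosomes hold neighbouring cells together. In an adherens junction a classical cadherin binds its like on the next cell and is tied through catenins to actin. In a desmosome, desmogleins and desmocollins take the place of the classical cadherin, and plakoglobin, plakophilins and desmoplakin tie them to intermediate filaments such as keratins. Desmosomes are typical of epithelia and heart muscle, whereas fibroblast-like cells, preadipocytes among them, usually carry N-cadherin and cadherin-11 in adherens junctions.

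Each line had been grown from 1 sorted cell out of fat tissue of 1 male Immortomouse aged 8 weeks, a mouse whose cells carry a temperature-sensitive viral T antigen under an interferon-inducible promoter. The tissue was digested, its stromovascular cells were passaged 2 times, and 190 cells were sorted without a gate. All lines shared growth at 33 °C with interferon gamma at 10 units/mL. The lines were labelled Type 1 (3 lines, all with clone names beginning PGF, for perigonadal fat), Type 2 (5 lines, 4 of them SCF, for subcutaneous fat, and 1 PGF), Type 3 (8 lines, 4 SCF and 4 PGF) and Other (7 lines, 4 SCF and 3 PGF). Each was hybridised once, from 250 ng of RNA, and each was labelled with scores for differentiation and for acidification of the medium. All lines are clones of 1 mouse, so the spread between lines is a spread between clones, and every clone carries the T antigen.

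The array medians lay between 5.09 and 5.16 and array pairs correlated at 0.937 to 0.992. The actin control read 1.58 log2 units higher at its 3′ than at its 5′ probe set in Type 1 line 1, against 0.53 to 1.0 in the other lines. The Gapdh control read 0.26 against -0.1 to 0.11. Values for Type 1 are therefore also given without its line 1 for some of the genes it moved, but not for all. Type 1 lines carried mesothelial transcripts. The mean level of 13 mesothelial markers was 8.51 to 10.39 in Type 1 lines and 3.82 to 4.94 in all others. Of the 11 tested markers, 10 were higher in Type 1 than in Type 2, beside 14.5% of all tested genes. Type 1 has 3 lines and the filter asks for 3, so genes high only in Type 1 could enter through it. Nothing is therefore read from this count or from the like counts of other lists below. Gpm6a and Muc16 fell below the filter, though they reached 10.64 and 8.04. Of the 13, Krt8, Krt18 and Krt19 also stand in the keratin list used here. The mean of 11 markers of other epithelia was 4.40 to 4.99 in every group, with Krt15, Cldn4, Cldn7, Esrp1 and Sfn never above the table median. However, Krt14 reached 7.64, Epcam 6.61 and Trp63 6.24, and 3 of the 11 were above that median in all lines of every group. Preadipocyte markers were led by Col3a1, Pdgfra and Pdgfrb. Their mean was 7.95 to 8.08 for Type 1 lines, 7.94 to 8.86 for Type 2, 8.49 to 10.12 for Type 3 and 7.84 to 9.72 for Other lines. Of the 10 tested, 2 were higher and 4 lower in Type 1 than in Type 2, and 0 higher and 5 lower than in Type 3. Of all tested genes 14.5% were higher and 10.7% lower than in Type 2, and 18.9% and 15.8% than in Type 3. Of 9 Schwann cell and neural markers, 7 were measured, and their mean was also higher in Type 1, at 6.40 to 6.71 against 5.02 to 5.78 in all other lines. Of the 5 tested, 3 were higher in Type 1 than in Type 2, beside 14.5% of all tested genes. These markers were led in level by Ncam1 and Mbp, while Foxd3 and Cdh19 were never above the table median. The mean of 10 endothelial markers was 4.21 to 4.99 over all lines, with Pecam1, Cdh5, Tie1, Emcn and Vwf never above the table median but Tek reaching 10.59 and Kdr 8.86. The mean of 10 leukocyte markers was 4.68 to 4.88 for Type 1 lines, 5.26 to 5.61 for Type 2 lines, 4.56 to 5.29 for Type 3 lines and 4.84 to 5.88 for Other lines. Of these, Ptprc, Adgre1, Itgam and Tyrobp were never above the table median, whereas Csf1r reached 11.68 and Cd53 10.51. The mean of 12 muscle markers was 5.15 to 6.44, led by Acta2, Tagln and Des, with Myog, Myod1, Myf5, Myh11 and Ttn never above the table median. The part of these marker groups in the values of the junction genes was not tested.

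Of the members, promoter sequence from RefSeq (GRCm38.p6) was read for Jup, Dsp and Pkp4 only. The promoter set used held no entry for Pkp2, Cdh1, Cdh3 or Cdh11, so the genes shown were not picked by their expression. Jup and Dsp were both highest in the Type 1 lines, Dsp mostly below the table median, but so were Cdh1 and Cdh3. Pkp4 followed Pkp2 and Cdh2 across the other lines. Each run holds the 250 bases before an annotated start, 5′ to 3′ on the strand of the gene, with capitals for matches to CCAAT or to its form on the opposite strand, ATTGG. The Jup start used here lies inside the gene span given below, which ends at 100397839, so the Jup window overlaps that span. The other motif searched was CACCTG, on the opposite strand CAGGTG, the E-box bound by the Snail and Zeb repressors, which does not overlap CCAAT.
Jup, chr11:100397791-100398040, minus strand: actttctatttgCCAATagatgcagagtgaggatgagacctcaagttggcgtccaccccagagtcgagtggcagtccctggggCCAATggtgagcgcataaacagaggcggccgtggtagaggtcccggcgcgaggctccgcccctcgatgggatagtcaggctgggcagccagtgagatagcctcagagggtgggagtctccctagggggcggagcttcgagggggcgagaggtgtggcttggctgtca
Dsp, chr13:38151044-38151293, plus strand: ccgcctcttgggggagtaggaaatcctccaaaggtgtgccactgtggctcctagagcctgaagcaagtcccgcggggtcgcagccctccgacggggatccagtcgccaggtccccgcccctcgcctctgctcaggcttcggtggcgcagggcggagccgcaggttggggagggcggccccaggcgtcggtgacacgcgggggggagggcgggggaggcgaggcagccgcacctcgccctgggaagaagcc
Pkp4, chr2:59160600-59160849, plus strand: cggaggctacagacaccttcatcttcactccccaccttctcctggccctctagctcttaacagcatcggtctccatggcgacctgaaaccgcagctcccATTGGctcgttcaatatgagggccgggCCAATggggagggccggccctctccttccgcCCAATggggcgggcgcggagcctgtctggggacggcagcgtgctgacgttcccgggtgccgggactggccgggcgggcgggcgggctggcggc
CCAAT was found at -238 and -167 in the Jup window and at -151, -124 and -93 in the Pkp4 window, counted from the start site, and not in the Dsp window. CACCTG was found in none of these windows; the window of a second annotated Pkp4 start, chr2:59161619-59161868, held it at -47. Of 32851 windows of the same length in the table, 33.8% held CCAAT and 17.2% held CACCTG. These are matches of letters only.

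Pkp2 encodes plakophilin-2, an armadillo-repeat protein of the desmosomal plaque, and lies at chr16:16213345-16272712. It was the member that set Type 2 and Type 1 apart from the remaining lines. Its log2 signal was 8.44, 7.85 and 8.37 in the Type 1 lines and 7.78, 7.26, 7.87, 6.42 and 7.81 in the Type 2 lines. The Type 3 lines ran from 4.42 to 5.97 with a median of 4.98, and the Other lines from 4.27 to 6.31 with a median of 5.76. Every Type 2 line lay above every Type 3 and Other line, although the lowest Type 2 line, line 4, was close to the highest Other line. The means were 8.22 ± 0.32 (SD, n = 3), 7.43 ± 0.62 (n = 5), 5.07 ± 0.53 (n = 8) and 5.43 ± 0.85 (n = 7). Type 2 exceeded Type 3 by 2.36 ± 0.35 (SE), or 5.12-fold, and Type 1 exceeded Type 3 by 3.15 ± 0.41, or 8.87-fold. Between Type 1 and Type 2 the difference was 0.79 ± 0.45, with overlapping lines.

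The 4 Pkp2 probe sets ordered the groups alike at very different levels. A further probe set that correlated with the main one at 0.989 spanned 8.17 to 8.81 (Type 1), 6.50 to 8.02 (Type 2), 4.09 to 5.95 (Type 3) and 3.65 to 6.31 (Other). The remaining pair never rose above the table median. Their means were 4.03 and 3.13 in Type 2 against 3.89 and 2.90 in Type 3, a smaller step in the same direction.

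Pkp4 encodes plakophilin-4, also called p0071, a relative of the desmosomal plakophilins that is found at adherens junctions as well, and lies at chr2:59160850-59355205. Its signal was 8.20, 8.32 and 8.14 in Type 1 and 8.28, 8.33, 8.33, 8.12 and 8.34 in Type 2. In Type 3 it ran from 6.55 to 8.20 (median 7.67) and in the Other lines from 7.11 to 8.62 (median 8.09). On this probe set the means were 8.22 ± 0.09 in Type 1, 8.28 ± 0.09 in Type 2, 7.61 ± 0.51 in Type 3 and 7.89 ± 0.53 in the Other lines, and the highest value of all was that of Other line 7. Type 2 exceeded Type 3 by 0.67 ± 0.24, but Type 3 line 7, at 8.20, lay above Type 2 line 4. Without Type 3 line 4, the lowest line, the difference was 0.52. Type 1 and Type 2 differed by -0.06 ± 0.30. The further probe set, which correlated with the main one at 0.878, read 7.19, 8.04 and 7.92 in the Type 1 lines, 7.81 to 8.14 in the Type 2 lines, 6.58 to 7.94 in the Type 3 lines and 6.96 to 8.39 in the Other lines. The Type 1 lines were thus spread more widely on it (7.71 ± 0.46) and overlapped every other group. Its differences were -0.36 ± 0.30 for Type 1 minus Type 2 and 0.59 ± 0.24 for Type 2 minus Type 3.

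Jup encodes plakoglobin, the catenin shared by desmosomes and adherens junctions, and lies at chr11:100368856-100397839. It was high in Type 1 only, at 7.26, 6.52 and 6.73. Type 2 lines read 4.71, 4.94, 4.78, 4.99 and 5.00, Type 3 lines 4.46 to 5.15 (median 4.93) and Other lines 4.80 to 5.33 (median 5.00). The Type 1 mean of 6.84 ± 0.38 exceeded that of Type 2 (4.88 ± 0.13) by 1.95 ± 0.16, or 3.87-fold, and that of Type 3 (4.86 ± 0.24) by 1.98 ± 0.15, or 3.94-fold. Outside Type 1 the signal stayed close to the table median, and Type 2 and Type 3 differed by 0.03 ± 0.13.

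Dsp encodes desmoplakin, which links the plaque to keratin filaments, and lies at chr13:38151294-38198577. Only Type 1 line 1, at 6.13, was above the table median; the other Type 1 lines read 4.20 and 4.53. The 20 remaining lines lay between 2.75 and 3.85, so all 3 Type 1 lines were above them, by a margin that varied strongly between clones. Fitted without the filter on low values, Type 1 exceeded Type 2 by 1.54 ± 0.28 and Type 3 by 1.58 ± 0.26. In an alternative chosen after the data were seen, the differences of means without Type 1 line 1 were 0.95 and 1.0, and without either of the other Type 1 lines they were 1.75 to 1.96. A further probe set repeated the pattern at 6.65, 4.50 and 4.43 in Type 1 and at most 3.83 elsewhere. The third stayed flat, with group means of 3.04 to 3.21, and correlated with the main one at -0.343. Type 1 line 1 is also the line with the high actin 3′ to 5′ difference.

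Cdh3 encodes P-cadherin, a classical cadherin of epithelia, and lies at chr8:106510852-106556911. It gave the clearest separation of Type 1, at 8.87, 8.73 and 8.65. Type 2 lines read 5.52 to 5.74, Type 3 lines 5.36 to 5.63 and Other lines 5.36 to 5.76, with medians of 5.62, 5.52 and 5.67. Type 1 exceeded Type 2 by 3.13 ± 0.10, or 8.74-fold, and Type 3 by 3.24 ± 0.09, or 9.47-fold, while Type 2 and Type 3 differed by 0.12 ± 0.08. The further probe set, below the table median in every line, showed the same step, from 3.38 to 3.93 outside Type 1 to 4.46 to 4.82 within it.

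Cdh1 encodes E-cadherin, the principal classical cadherin of most epithelia, and lies at chr8:106603350-106670247, close to Cdh3. It was never above the table median. Type 1 lines read 3.47, 4.25 and 3.06, and all other lines 2.53 to 3.00. The Type 1 lines were thus the highest, and fitted without the filter they exceeded Type 2 by 0.81 ± 0.16 and Type 3 by 0.88 ± 0.15. Without Type 1 line 2 the differences of means, computed as for Dsp, were 0.48 and 0.55. With values so low in the table, no level of the transcript can be stated.

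Cdh2 encodes N-cadherin, the classical cadherin of mesenchymal and neural cells, and was high in every line. Its signal was 10.14, 10.86 and 10.85 in Type 1 and 10.08, 10.47, 9.59, 10.65 and 10.82 in Type 2. It ran from 8.73 to 10.38 in Type 3 (median 9.93) and from 9.05 to 11.22 in the Other lines (median 10.08). All 4 groups overlapped, with means of 10.62 ± 0.41, 10.32 ± 0.49, 9.72 ± 0.62 and 9.97 ± 0.75. Type 2 exceeded Type 3 by 0.61 ± 0.34 and Type 1 exceeded Type 3 by 0.90 ± 0.40. A further probe set correlated with the main one at 0.967. It gave 0.67 ± 0.35 for Type 2 minus Type 3, 0.77 ± 0.41 for Type 1 minus Type 3 and 0.10 ± 0.44 for Type 1 minus Type 2.

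Cdh11 encodes cadherin-11, a type II classical cadherin of mesenchymal cells, and lies at chr8:102632095-102785493. It was likewise high throughout, at 12.68, 12.08 and 12.30 in Type 1 and 10.95, 11.91, 11.42, 11.79 and 11.72 in Type 2. Type 3 lines ran from 11.03 to 12.25 (median 11.79) and Other lines from 11.30 to 12.52 (median 11.87). Every Type 1 line lay above every Type 2 line, but Type 3 and Other lines reached into the Type 1 range. Type 1 exceeded Type 2 by 0.80 ± 0.28, or 1.74-fold, and Type 2 and Type 3 differed by -0.17 ± 0.22. Without any 1 line the first of these lay between 0.64 and 0.93, and it was 0.71 ± 0.31 with depot and 0.70 ± 0.26 with the number in the clone name in the model. Against Type 3 the difference was 0.63 ± 0.26, and 0.47 to 0.77 without any 1 line. The further probe set, which correlated with the main one at 0.991, gave 1.19 ± 0.39 and 1.03 ± 0.36 for these comparisons.

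**Figure D1:**
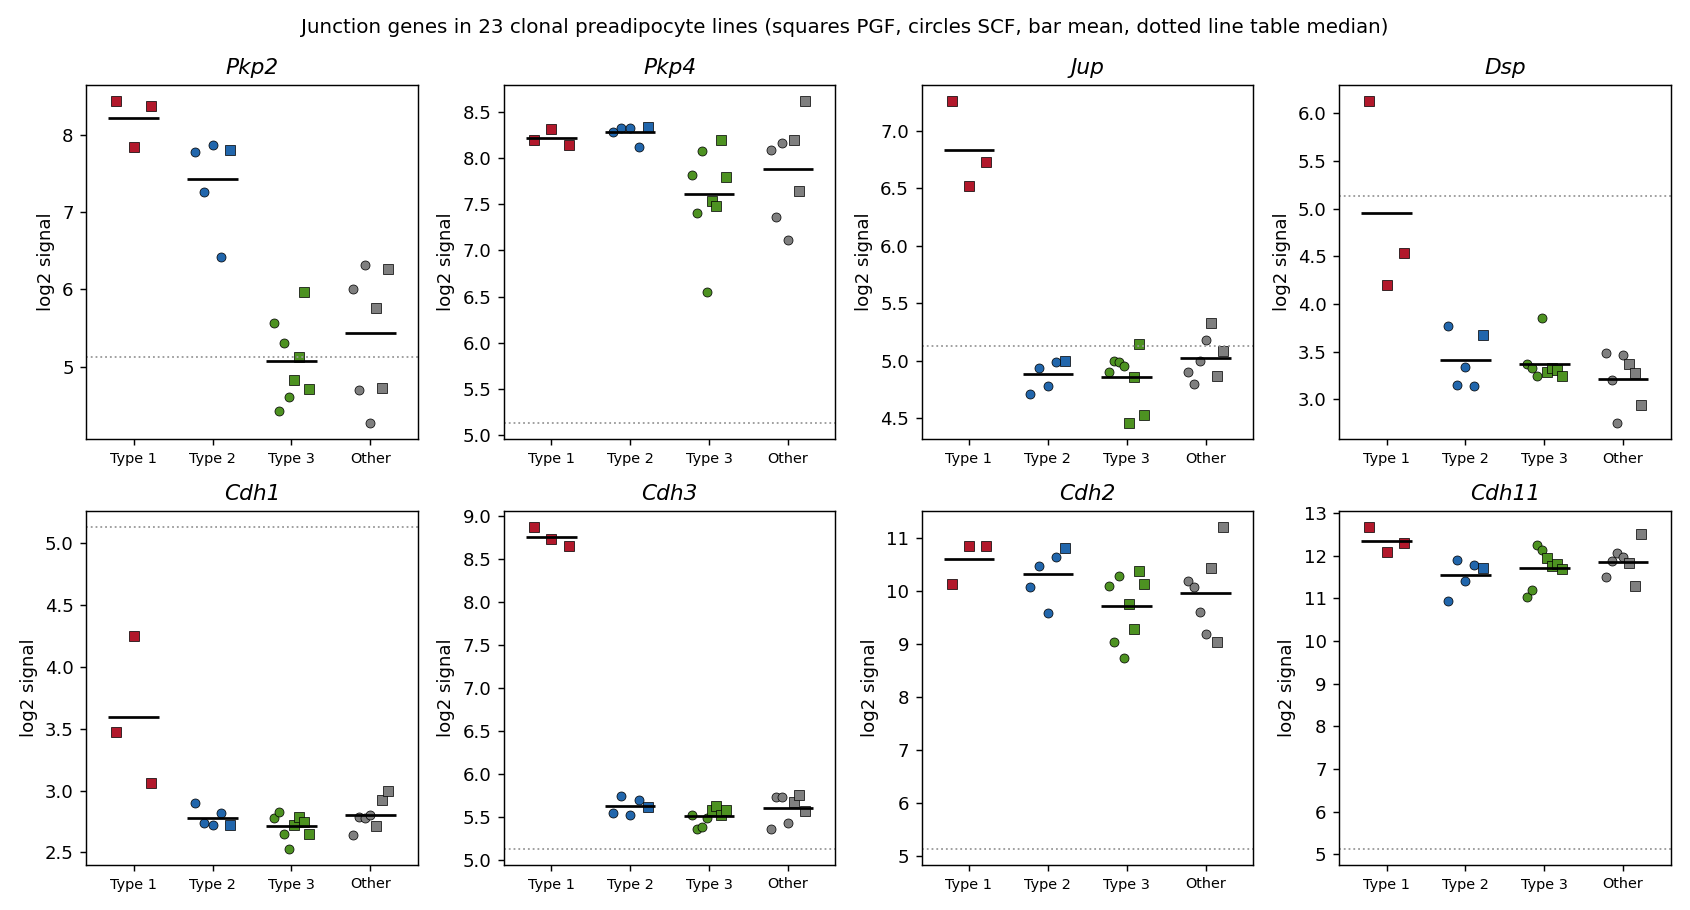
Log2 signal of the 8 junction genes (vertical axes, each with its own range) in the 23 lines by type label, with squares for PGF, circles for SCF, a bar at the group mean and a dotted line at the table median where it falls in the panel. Pkp2 is higher in every Type 1 and Type 2 line than in the Type 3 and Other lines. Jup, Dsp, Cdh1 and Cdh3 are higher in all 3 Type 1 lines than in the 20 others, with all Cdh1 values and all Dsp values but that of Type 1 line 1 below the table median, and Pkp4, Cdh2 and Cdh11 overlap between most groups.

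Against the whole table, few genes separated Type 2 from Type 3. At an adjusted p under 0.05 in limma (Benjamini-Hochberg over 12307 genes), 47 genes passed, or 0.382%, of which 25 were higher in Type 2 (0.203%) and 22 lower (0.179%). Among the 6 tested members 1 passed, Pkp2. The choice of members had used these contrasts, so their counts and medians are given beside those of all genes as a description, and nothing is read from them. Lines of Type 2 lay wholly above lines of Type 3 for 1.84% of tested genes, and for Pkp2 alone among the 6 tested members. Lines of Type 1 lay wholly above those of Type 2 for 17.6% of genes, Jup, Cdh3 and Cdh11 among them, and above those of Type 3 for 16.0%, with Pkp2, Jup and Cdh3. Without Type 2 line 1 the count of genes was 0 and the Pkp2 difference 2.27; without Other line 7 the count was 195. The median difference was 0.36 over the 6 members and -0.01 over all tested genes. The count was 101 without Other line 4, 29 without Type 1 line 1, and 0 to 25 without any 1 of Type 2 lines 1 to 5, Type 3 lines 1 to 8, Type 1 line 2 or 3 or Other line 3. Between Type 1 and Type 2, 3099 genes passed (25.2%) and 14.5% were higher in Type 1 and 10.7% lower. Of the members, Cdh3, Jup and Cdh11 passed and were higher. Without Type 1 line 1, 2004 genes passed, with 2 of the members, Cdh3 and Jup. Between Type 1 and Type 3 the shares were 34.7%, 18.9% and 15.8%, and Cdh3, Pkp2 and Jup passed and were higher. All 3 Type 1 lines lay above the 20 other lines for 7.86% of tested genes, and for Jup and Cdh3 among the tested members. The member medians were 0.79 and 1.44, against 0.01 over all genes in both comparisons. These 3 comparisons share groups, so their values are not independent of each other.

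**Figure D2:**
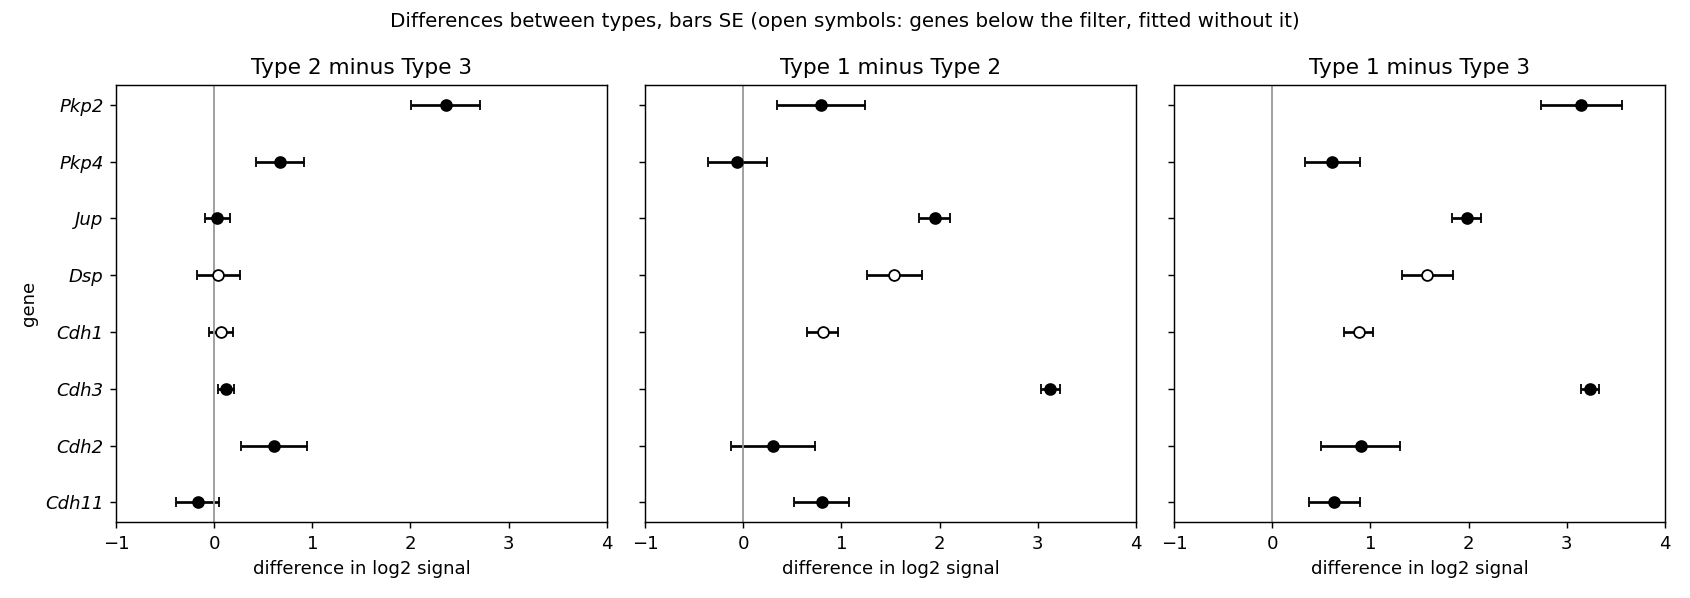
Difference in log2 signal (horizontal axis) for each gene in the 3 comparisons between types, with bars for the SE and open symbols for Dsp and Cdh1, which were fitted without the filter on low values. Pkp2 stands alone at 2.36 in Type 2 minus Type 3, whereas Cdh3 leads at 3.13 and 3.24 in the comparisons with Type 1.

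The remaining desmosome genes were mostly low. Of 14 listed, 11 had a single-symbol probe set and 3 were tested: the plakophilin Pkp3 and the plakins Ppl and Evpl. The desmosomal cadherins Dsg2, Dsc2 and Dsc3, named here for their role, did not exceed 4.65, 4.46 and 4.47 in any line and did not enter the tests. Pkp3 was higher in Type 1 (5.53 to 7.40) than in Type 2 (4.94 to 5.59), by 1.01 ± 0.31, and than in Type 3 (5.00 to 6.01), by 0.88 ± 0.29. It was the 1 gene of the 3 that passed in either comparison, while 14.5% and 18.9% of all tested genes were higher in Type 1. Without Type 1 line 1 the Pkp3 differences were 0.47 and 0.34 and did not pass. With depot in the model they were 0.92 ± 0.36 and 0.82 ± 0.31 and did not pass either. Ppl, which encodes periplakin, was 5.15 to 5.56 in Type 2 and 5.60 to 7.35 in Type 3, a difference of -0.94 ± 0.34 that did not pass. Pkp2 was thus high in Type 2 lines while Jup, Dsp, Dsg2, Dsc2 and Dsc3 stayed near or below the table median there.

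Among 18 further cadherins, 16 were on the array and 4 were tested. Of all tested genes 10.7% were lower in Type 1 than in Type 2 and 15.8% lower than in Type 3. Among the 4 cadherins only Cdh22 passed, lower in Type 1 (4.53 to 4.58) than in Type 2 (4.94 to 5.84) by -0.65 ± 0.22 and than in Type 3 by -0.64 ± 0.21, at levels near the table median. With the number in the clone name in the model, the first was -0.61 ± 0.24 and did not pass, and without any single Type 1 line neither passed.

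Some genes that tie cadherins to actin were higher in Type 1. Of all tested genes 14.5% were higher and 10.7% lower than in Type 2, and 18.9% and 15.8% than in Type 3. Of 10 tested from a list of 13, 4 were higher than in Type 2 and 6 higher than in Type 3, with 0 lower in either. They included Ajuba, a LIM-domain protein that binds α-catenin, which ran from 9.68 to 10.15 among Type 1 lines, from 8.52 to 9.10 among Type 2 lines and from 7.63 to 8.42 among Type 3 lines. The differences were 1.19 ± 0.19 to Type 2 and 1.87 ± 0.18 to Type 3. Afdn, which encodes afadin and joins nectins to actin, was higher by 0.89 ± 0.18 and 1.17 ± 0.16. Vcl, the gene of vinculin, was higher by 0.81 ± 0.30 and 1.28 ± 0.28, the first of which did not pass in 14 of 23 fits that left out 1 line. Ctnnb1, which encodes β-catenin, the relative of plakoglobin in adherens junctions, was higher than in Type 2 by 0.41 ± 0.08, and by 0.28 without Type 1 line 1. In the 7 junction, filament and factor lists, Ajuba was also the 1 gene that passed between Type 2 and Type 3, where it was higher in Type 2 by 0.69 ± 0.15, like Pkp2. That call was lost in 16 of the 23 fits that left out 1 line, with arrays centred on their medians (0.69), with the mean of all probe sets (0.69), without the filter (0.69) and with the number in the clone name in the model (0.67).

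Tight junction and nectin genes moved in both directions between Type 1 and Type 2. Of 16 tested from 26 listed, 4 were higher and 3 lower in Type 1 than in Type 2, and 6 were higher and 0 lower than in Type 3. Over all tested genes the shares were 14.5% higher and 10.7% lower, and 18.9% higher and 15.8% lower. F11r, the gene of junctional adhesion molecule A, read 11.82 to 12.20 in the Type 1 lines, whereas Type 2 lines read 6.91 to 8.81 and Type 3 lines 7.25 to 9.10. The differences were 3.94 ± 0.43 and 3.95 ± 0.40. Cgn, the gene of cingulin, was higher by 2.24 ± 0.16 and 2.19 ± 0.15, and Tjp1, which encodes the scaffold ZO-1, by 1.57 ± 0.23 and 1.47 ± 0.21. Cgnl1, which encodes paracingulin, was lower than in Type 2 by -1.37 ± 0.42, a call lost without Type 1 line 1 or 2. Of 3 tested connexin genes, Gjb5 was higher in Type 1 than in Type 2 by 2.14 ± 0.52 and none passed between Type 1 and Type 3, where Gjb5 differed by 1.22 ± 0.49.

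Intermediate filament genes moved in both directions; the list holds keratins, the filaments that desmosomes bind in epithelia, and also Vim, Des, Nes and Synm. Of 12 tested, 4 were higher and 2 lower in Type 1 in both comparisons, beside 14.5% and 10.7% of all tested genes against Type 2 and 18.9% and 15.8% against Type 3. Krt18 read 10.70 to 12.27 in Type 1 lines and 3.22 to 3.78 in Type 2 lines, a difference of 8.18 ± 0.44. Its keratin partner Krt8 varied between the Type 1 clones, with a lowest value of 5.17, a median of 11.07 and a highest of 11.09, and exceeded Type 2 by 4.26 ± 0.77, a difference that was 3.27 without Type 1 line 3 and 6.23 without Type 1 line 2. Krt7 exceeded Type 2 by 3.99 ± 0.59, and by 2.69 without Type 1 line 1. Krt19 was lower in Type 1 than in Type 2, by -2.29 ± 0.79, and did not pass with depot in the model (-2.10 ± 0.90) or in 5 of 23 fits that left out 1 line.

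Transcription factors known to repress or restore epithelial junction genes were counted beside them, together with the splicing factor Esrp2. Of 14 tested, 2 were higher and 6 lower in Type 1 than in Type 2, and 1 was higher and 7 lower than in Type 3. Of all tested genes 14.5% were higher and 10.7% lower in the first comparison, and 18.9% and 15.8% in the second. Snai2, a repressor of E-cadherin, read 8.19 to 9.98 in the Type 1 lines, whereas Type 2 lines read 12.05 to 12.76 and Type 3 lines 12.31 to 13.14. The differences were -3.28 ± 0.35 and -3.58 ± 0.32. Prrx1 was lower by -2.95 ± 0.26 and -2.78 ± 0.24 and Twist2 by -2.68 ± 0.41 and -2.52 ± 0.38. Without Type 1 line 1 the differences were -1.95 and -1.79 for Twist2 and -2.76 and -3.07 for Snai2. Snai1 was lower than in Type 3 by -2.03 ± 0.42, and Esrp2, an epithelial splicing factor, was higher than in Type 2 by 1.80 ± 0.18. The Zeb repressors moved in opposite directions. Zeb1 had its highest group mean, 8.93, in Type 1, with 7.98 for Type 2, 8.27 for Type 3 and 8.46 for Other lines. No Type 2 line exceeded 8.29 in Zeb1, and the lowest Type 1 line read 8.63, but a Type 3 line reached 8.91. The Zeb2 mean was lowest in Type 1, at 6.77, beside 8.38 (Type 2), 8.64 (Type 3) and 8.58 (Other). Beside these, Cdh1 was above the table median in no line, though highest in the Type 1 lines (3.06 to 4.25 against 2.53 to 3.00 in all others). The means of Cdh2 and Cdh11 were highest in Type 1, that of Cdh2 by 0.30 ± 0.43 over Type 2 with overlapping lines. A relation between these factors and the cadherins was not tested.

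**Figure D3:**
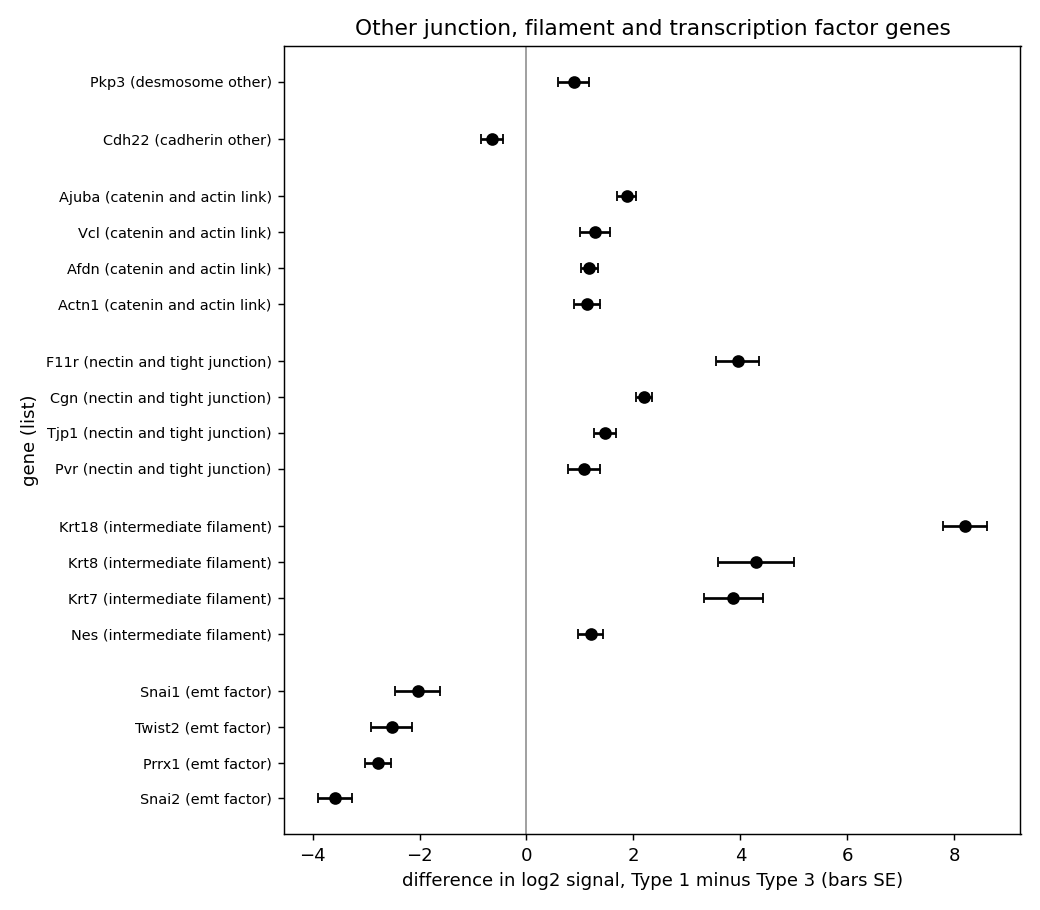
Difference in log2 signal between Type 1 and Type 3 (horizontal axis, bars SE) for up to 4 genes of each list that passed the threshold, ordered within each list. Krt18 leads at 8.20 and F11r at 3.95, Pkp3 and Cdh22 lie within about 1 unit of 0 on either side, and Snai2 lies lowest at -3.58.

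The Other lines were set against the mean of Type 2 and Type 3. Pkp2 was lower in them by -0.82 ± 0.29 (limma unadjusted p = 0.01, adjusted p = 0.348), and their range overlapped that of Type 3. Differences were -0.06 ± 0.20 for Pkp4, -0.05 ± 0.28 for Cdh2, 0.15 ± 0.11 for Jup, 0.04 ± 0.06 for Cdh3 and 0.22 ± 0.18 for Cdh11. None of the 6 members passed, nor did any of the 12307 genes in limma (0.0%), where 1135 (9.22%) had an unadjusted p under 0.05. The Other lines differed among themselves as much as Type 3 lines did: line 4 was lowest in Pkp2 (4.27) and Pkp4 (7.11), and line 7 was highest in Pkp4 (8.62), Cdh2 (11.22) and Cdh11 (12.52).

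Depot was compared with the group in the model, since Type 1 held PGF lines only. For Cdh2, PGF exceeded SCF by 0.45 ± 0.27 (limma adjusted p = 0.65), with means of 9.89 ± 0.48 and 9.54 ± 0.77 in Type 3 (n = 4 each). Pkp4 differed by 0.32 ± 0.19 (adjusted p = 0.644), Pkp2 by 0.26 ± 0.29 (adjusted p = 0.825), Cdh11 by 0.11 ± 0.18 (adjusted p = 0.897), Cdh3 by 0.10 ± 0.06 (adjusted p = 0.646) and Jup by -0.02 ± 0.11 (adjusted p = 0.971). None of the members and none of the 12307 genes passed (0.0%); 1034 genes (8.40%), no member among them, had an unadjusted p under 0.05. The 95% intervals reached from -0.11 to 1.00 for Cdh2 and from -0.34 to 0.86 for Pkp2, so a difference of nearly 1 log2 unit could not be told from none with these lines. A test of the depot difference in Type 3 against that in the Other lines likewise passed for 0 genes. Within the Other lines alone 22 of the 12307 genes passed for depot, no tested member among them, and within Type 3 alone 0 passed.

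The differentiation score, from lipid staining after induction, bore no detectable relation to the members with the group in the model. The labels do not say whether the RNA came from cells before or after induction. Slopes per point were -0.18 ± 0.11 for Pkp4 (limma adjusted p = 0.82), -0.17 ± 0.18 for Pkp2 (adjusted p = 0.887) and -0.11 ± 0.17 for Cdh2 (adjusted p = 0.932), and those of Jup, Cdh3 and Cdh11 lay between 0.01 and 0.02. None of the 12307 genes passed (0.0%), and 872 (7.09%) had an unadjusted p under 0.05. In the 20 lines outside Type 1, Pkp2 averaged 6.33 ± 1.09 at a score of 2 (n = 8), 4.98 ± 0.63 at 3 (n = 7) and 6.05 ± 1.43 at 4 (n = 5), with no steady order.

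Slopes on the media acidification score were negative for Pkp2, Cdh2, Pkp4 and Cdh11. With the group in the model, Pkp2 changed by -0.31 ± 0.09 per point (unadjusted p = 0.00399, limma adjusted p = 0.295), Cdh2 by -0.24 ± 0.10 (unadjusted p = 0.0257, adjusted p = 0.344) and Pkp4 by -0.15 ± 0.07 (unadjusted p = 0.0511, adjusted p = 0.408). Cdh11 had a slope of -0.08 ± 0.07 (adjusted p = 0.669), and Cdh3 and Jup of 0.01 and 0.0. On the further tested probe sets the slopes were -0.38 ± 0.11 for Pkp2, -0.20 ± 0.11 for Cdh2 and -0.12 ± 0.07 for Pkp4. Their limma unadjusted p-values were 0.00261, 0.0711 and 0.113. No member and no gene passed after adjustment (0.0%), while 1516 genes (12.3%) had an unadjusted p under 0.05. By p, Pkp2 ranked 165 and Cdh2 916 of the 12307 genes. The sources used here do not say which end of the score is the more acid. In the Other lines Pkp2 was 4.27 and 4.72 in the 2 lines scored 4 and 4.70 to 6.31 in the 5 lines scored 1. In Type 3 it was 5.97 in the line scored 1, 4.71 in the line scored 2, 4.42 to 5.31 in the 5 lines scored 3 and 5.57 in the line scored 4. Without Other line 4 the Pkp2 slope was -0.25 (adjusted p = 0.532), within a range of -0.35 to -0.25 over all fits that left out 1 line.

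**Figure D4:**
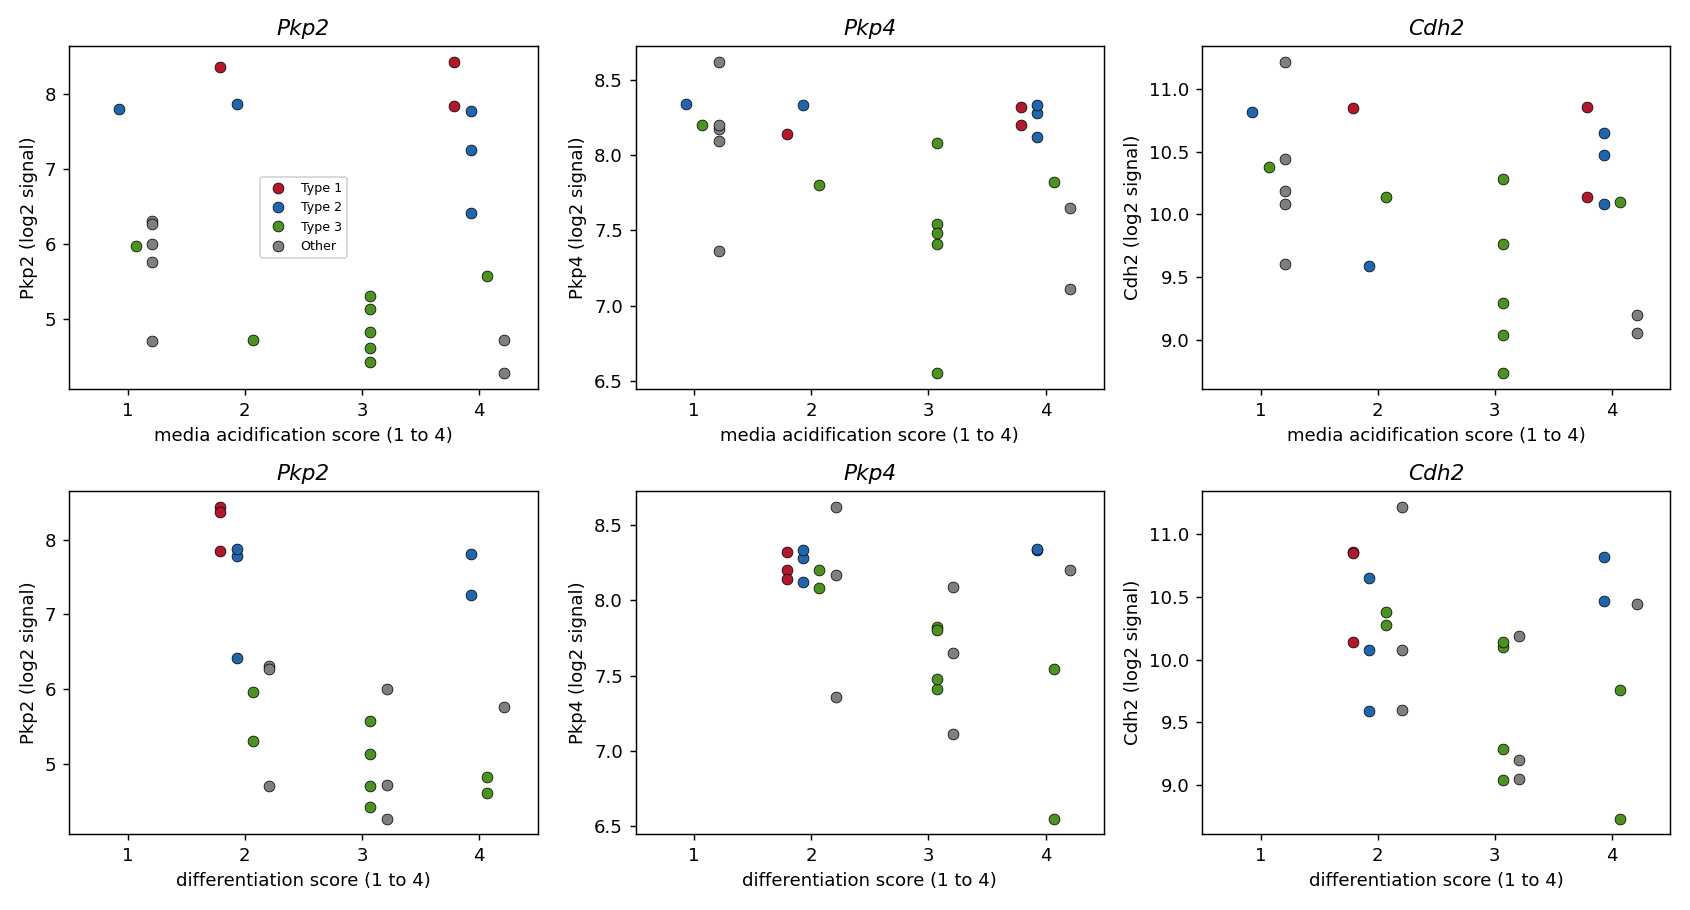
Log2 signal of Pkp2, Pkp4 and Cdh2 (vertical axes) against the media acidification score (upper row) and the differentiation score (lower row), each a whole number from 1 to 4 with points of the 4 groups set slightly apart. The 2 Other lines scored 4 for acidification have the lowest Cdh2 of their group, at 9.05 and 9.20, and Type 2 stays at 6.42 or above in Pkp2 at every score it holds.

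Pkp2, Pkp4 and Cdh2 varied together outside Type 1, as a description over lines that share 1 mouse, 1 array design and the score pattern above. Between Pkp2 and Pkp4 the Pearson correlation was 0.696 within Type 3 (n = 8), 0.941 within the Other lines (n = 7) and 0.777 over the 20 lines (Spearman 0.907), where Type 2 forms the upper end. Between Pkp4 and Cdh2 it was 0.923 within Type 3, 0.731 within Other and 0.787 over the 20 lines (Spearman 0.746). Without the 2 lines farthest from the median of the first gene, the values over 20 lines were 0.779 and 0.689. Within Type 3 they were then 0.569 and 0.915, and within Other 0.846 and 0.922. Type 3 line 4 was lowest of all lines in both Pkp4 (6.55) and Cdh2 (8.73). Pkp2 and Cdh2 correlated at 0.537 over the 20 lines, at 0.713 within Type 3 and at 0.646 within Other. By contrast, Pkp2 correlated with Jup at 0.037 and with Cdh11 at -0.165 over the 20 lines. In all, 28 pairs of members were computed.

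Of 12306 other tested genes, 73 had a higher positive correlation with Pkp2 than Pkp4 had (0.593%), and 28 with Cdh2 than Pkp4 had (0.228%). Seen from Pkp4, 240 genes (1.95%) exceeded Pkp2 and 208 (1.69%) exceeded Cdh2. For the pair of Pkp2 and Cdh2, 9.74% of genes exceeded Cdh2 in correlation with Pkp2, and 8.37% exceeded Pkp2 in correlation with Cdh2. Negative correlations were not counted. The genes most like Pkp2 over the 20 lines were Wdr36 (0.897), Tnfrsf12a, the receptor of the cytokine TWEAK (0.888), and Irak2, a kinase of interleukin-1 and Toll-like receptor signalling (0.858). Over all 23 lines Tnfrsf12a and Irak2 stayed at 0.876 and 0.877 while Wdr36 fell to 0.465. For Pkp4 they were Cep55, a protein of cell abscission (0.942), the thioredoxin reductase Txnrd1 (0.927) and Smndc1 (0.914). For Cdh2 they were the ubiquitin ligase Cbl (0.870), Prmt6 (0.858) and Zfp850 (0.844), and for Cdh11 Lhx6 (0.793), Rhoj (0.778) and Foxf1 (0.762). Jup and Cdh3, which hardly varied outside Type 1, had weaker best matches, with Nppb at 0.759 for Jup and Arfgef1 at 0.758 for Cdh3.

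**Figure D5:**
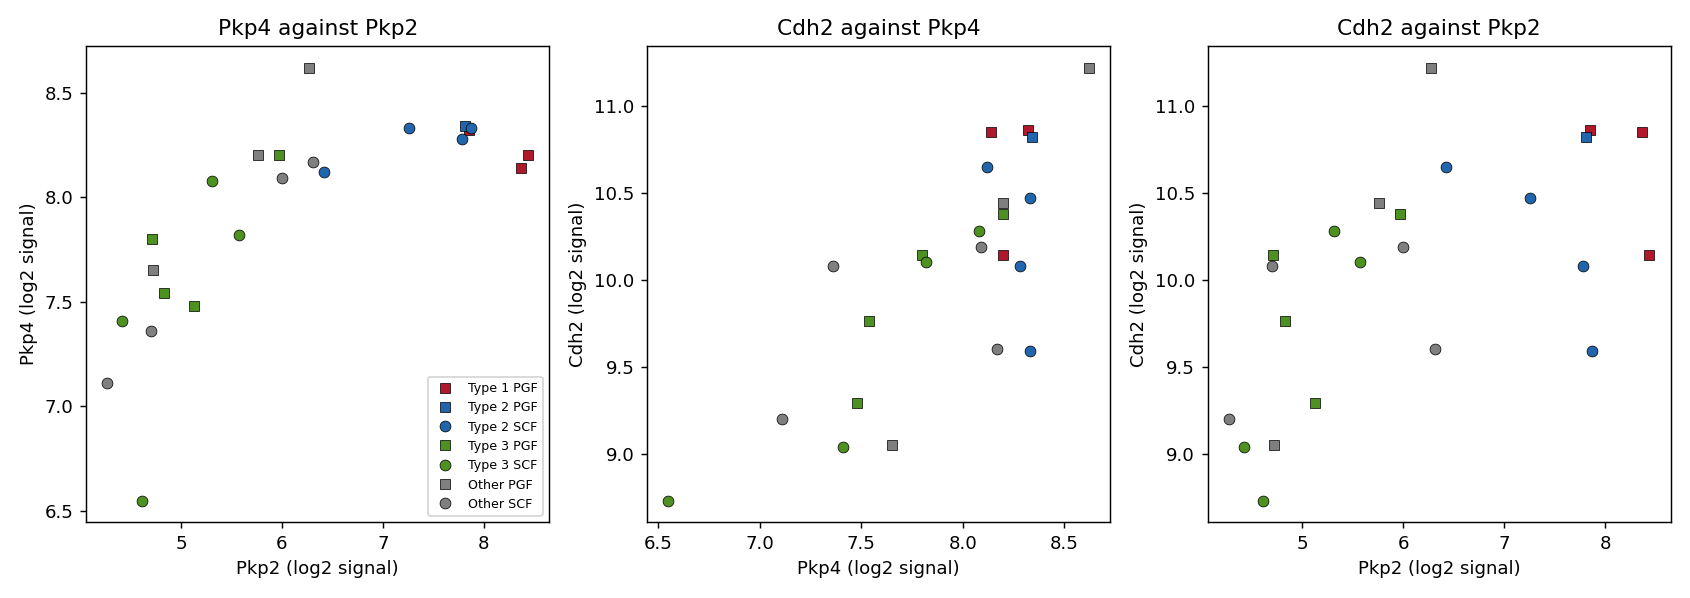
Log2 signal of Pkp4 against Pkp2 (left), Cdh2 against Pkp4 (middle) and Cdh2 against Pkp2 (right) in the 23 lines, with colours for the groups and squares for PGF, circles for SCF. Type 1 and Type 2 lie at 8.12 or above in Pkp4, Other line 7 has the highest Pkp4 (8.62) and the highest Cdh2 (11.22), and the lowest values of both genes, 6.55 and 8.73, are those of Type 3 line 4.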

How the data were processed

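Expression was measured on 23 mouse arrays, 1 per line. The deposited values were used as log2 signal, from 2.03 to 14.46; the log2 scale was read from the values, and the submitters' processing notes name MAS5 with no version. How the authors summarised and scaled the arrays is not given in the sources. Of 45101 probe sets, 34945 listed 1 gene symbol, 932 several and 9224 none or a control; 34741 matched RefSeq (GRCm38.p6) by Entrez ID. The array's own build is not stated, so positions are those of RefSeq. Each of 18193 genes was represented by its brightest probe set on average over the 23 lines, and 12307 genes above the table median of 5.13 in at least 3 lines were tested. Detection calls were not used here. Precision is limited by the number of arrays.

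Groups came from the labels, depot from the clone name. Line numbers are names, given in accession order. limma 3.58.1 in R 4.3.3 (lmFit, eBayes) was fitted over all 23 lines with group means, and p-values were adjusted by Benjamini-Hochberg over all tested genes, with a threshold of 0.05; depot and score slopes were fitted with the group in the model. Intervals of 95% come from limma's moderated t quantiles. The script was tested on simulated data. Python 3.11.15 with numpy 2.4.6, pandas 2.3.3, scipy 1.17.1 and matplotlib 3.10.9 made the summaries and plots.

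The members, gene lists and comparisons were chosen with earlier results of these data known. All members are named; of each list, up to 4 genes with the largest difference among those that passed, or up to 2 with the smallest p where none passed, could be named, and for each tested member the genes with the highest correlation over the 20 lines outside Type 1. Alternatives were the mean of a gene's probe sets, other probe sets, no filter, arrays centred on their medians, array weights, depot or the clone-name number as a covariate, fewer groups, and each line left out. The sources do not say that the clone-name number marks a batch.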

Additional observations from a re-analysis of the deposited data

Results flagged for a closer look

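Of 24 sets of lines checked (the 8 genes in Type 2, Type 3 and Other), 2 had a line set far from the rest by Dixon's criterion; by chance about 1 in 20 sets would. Pkp4 in Type 2 line 4 was 8.12 against 8.28 to 8.34 in the other Type 2 lines, a gap of 0.73 of the range (critical value 0.71, n = 5). The same line was lowest of its group in Pkp2 (6.42). Dsp in Type 3 line 4 was 3.85 against 3.24 to 3.37, a gap of 0.78 of the range (critical value 0.526, n = 8), at a level below the table median. That line was also lowest in Pkp4 and Cdh2.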

How the results depend on the processing

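The separation of Type 2 from Type 3 was the least stable result. Its 47 genes became 1 with the mean of all probe sets, 9 without the filter, 5 with the clone-name number in the model, 133 with depot in the model, 565 over the 16 lines of the 3 types and 1037 with array weights, whose fit stopped before it had converged; fits without 1 line gave 0 to 195 genes and 0 to 1 members. Array weights brought 2 members past the threshold; since the members were chosen on these contrasts, nothing is read from their counts. Between Type 1 and Type 2, array weights called 5818 genes and no filter 5 of 8 members, and 2004 to 3344 genes passed without 1 line. Between Type 1 and Type 3, array weights called 7013 genes and 6 members, and no filter 5 members. For Other against Types 2 and 3, fits without 1 line called 0 to 1 genes.

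Signs turned only in values smaller than their errors: Cdh2 between Type 1 and Type 2 (-0.06 with depot), Cdh11 by depot (-0.22 with the clone-name number), Cdh2 in the Other lines (0.01 with the other probe set), and differentiation slopes of Jup (-0.03 with array weights, -0.02 with the clone-name number), Cdh3 (-0.02 with that number) and Cdh11 (-0.02, -0.08 and -0.01 with array weights, that number and the other probe set). Without 1 line, Jup ran from -0.03 to 0.07 between Type 2 and Type 3, from -0.07 to 0.03 by depot, from -0.03 to 0.05 per differentiation point and from -0.02 to 0.02 per acidification point. Cdh3 ran from -0.01 to 0.03 per acidification point, Cdh11 from -0.04 to 0.07 per differentiation point, and in the Other lines Pkp4 ran from -0.18 to 0.07 and Cdh2 from -0.26 to 0.10. The causes were not tested. No paired analysis was possible because line numbers only follow accession order and pair no lines.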
